A study of Homo sapiens with 30 samples.

Results

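These are the stretches of open chromatin that were found in posterior-derived telencephalon cells and in no other population of a series on the early human neural lineage. They were chosen by the presence or absence of a peak in 10 lists. Peaks on chromosomes 1 to 22 that shared 1 bp or more were merged, and a region was kept where the list of the posterior-derived telencephalon cells, pNE_T, had a peak and the other 9 lists had none. This gave 16390 of 476170 merged regions, which is 3.44% of all regions and 8.33% of the 196872 regions open in pNE_T. Their restriction to pNE_T is thus a definition and not a result.

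OmniATAC-seq uses the Tn5 transposase to cut and tag DNA that nucleosomes do not cover, and it was applied here to wild-type H1 cells, an established human embryonic stem cell line. Each population had 3 replicate libraries of 50000 cells, which the labels do not describe as separate cultures, and 1 peak list was deposited for each population. The populations were pluripotent cells on day 0 (hPSC), definitive ectoderm on day 1 (DE), anterior (aNE) and posterior (pNE) neural ectoderm on day 2, and 6 populations on day 4, made by moving aNE or pNE cells to telencephalon, midbrain or hindbrain medium (aNE_T, aNE_M, aNE_H, pNE_T, pNE_M and pNE_H). All differentiated cells passed through a day 1 medium with the TGF-beta receptor inhibitor A8301, the MEK inhibitor trametinib, the WNT secretion inhibitor C59 and the BMP receptor inhibitor LDN193189. The pNE_T cells then spent a day in A8301, LDN193189, the retinoic acid receptor agonist TTNPB at 50 nM, FGF2 and the tankyrase inhibitor XAV939, and were moved to a telencephalon medium that began with XAV939, LDN193189 and FGF2. The aNE_T cells met C59 in place of TTNPB, FGF2 and XAV939 on day 2. Cells kept past day 2 were plated at 150000 per square cm in the posterior and 75000 in the anterior protocol, so plating density and origin cannot be told apart. All populations came from 1 cell line.

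Most open regions that differ between neighbouring cell types lie away from promoters and include enhancers, stretches of DNA where transcription factors bind and act on genes over a distance. In the embryo, retinoic acid and FGF signals push the neural plate towards hindbrain and spinal cord, while inhibition of WNT and BMP signalling favours forebrain. The telencephalon is the most anterior part of the neural tube and forms the cerebral hemispheres; SIX3, LHX2 and EMX2 are among the transcription factors that mark it.

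The lists give the start and end of each peak and nothing else. There is no value for a single library, no peak height and no read depth, and for that reason values below carry no error between replicates and populations could not be tested against each other. Comparisons are between lists. Intervals given with shares are 95% Wilson intervals, which cover the counting of regions only; regions near each other are not independent.

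The sequences that carry promoter findings are shown first. The members with a bearing on promoters are few, and those shown were chosen after their values were seen, for the genes they lie at. Each is the stretch of 250 bases before an annotated start site (RefSeq, GRCh38.p14), written 5′ to 3′ on the gene's strand, with the bases inside the pNE_T peak in capitals. The first 2 are at LPP, a focal adhesion protein (chr3:188568755-188569004, plus strand), and KSR1, a scaffold of the RAF-MEK-ERK cascade (chr17:27471714-27471963, plus strand).
LPP: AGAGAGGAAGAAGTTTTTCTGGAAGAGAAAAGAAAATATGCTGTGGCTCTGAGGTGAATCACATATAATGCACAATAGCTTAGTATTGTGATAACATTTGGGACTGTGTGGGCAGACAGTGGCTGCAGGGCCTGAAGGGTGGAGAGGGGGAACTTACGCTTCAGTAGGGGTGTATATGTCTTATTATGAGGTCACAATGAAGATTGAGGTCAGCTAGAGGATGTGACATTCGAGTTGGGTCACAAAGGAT
KSR1: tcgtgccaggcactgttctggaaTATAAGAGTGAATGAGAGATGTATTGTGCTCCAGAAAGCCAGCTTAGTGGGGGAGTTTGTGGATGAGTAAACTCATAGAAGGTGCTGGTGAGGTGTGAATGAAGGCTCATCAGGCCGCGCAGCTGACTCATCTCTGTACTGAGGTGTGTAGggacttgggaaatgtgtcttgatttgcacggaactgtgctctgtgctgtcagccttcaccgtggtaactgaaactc
The capitals at LPP hold the SOX motif ACAATG, its variant ACAAAG, the nuclear receptor motif AGGTCA and the AP-1 motif TGANTCA. Those at KSR1 hold TGANTCA and the E-box CAGCTG. The next are at TLE2, a Groucho-family corepressor that binds TCF and LEF factors (chr19:3029281-3029530, minus strand), GFRA1, a receptor for the neurotrophic factor GDNF (chr10:116255796-116256045, minus strand), and TUBA1C, an alpha tubulin (chr12:49227676-49227925, plus strand).
TLE2: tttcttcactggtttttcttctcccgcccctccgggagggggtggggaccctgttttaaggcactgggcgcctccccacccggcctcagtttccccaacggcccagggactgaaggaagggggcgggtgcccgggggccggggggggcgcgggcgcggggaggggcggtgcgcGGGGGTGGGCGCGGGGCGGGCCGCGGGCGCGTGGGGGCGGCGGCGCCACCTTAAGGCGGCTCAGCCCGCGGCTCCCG
GFRA1: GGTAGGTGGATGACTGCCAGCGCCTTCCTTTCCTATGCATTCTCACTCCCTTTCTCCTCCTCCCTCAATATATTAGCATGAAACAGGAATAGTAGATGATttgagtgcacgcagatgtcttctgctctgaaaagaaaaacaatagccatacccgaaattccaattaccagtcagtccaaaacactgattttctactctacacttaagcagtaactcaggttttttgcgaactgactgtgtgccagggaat
TUBA1C: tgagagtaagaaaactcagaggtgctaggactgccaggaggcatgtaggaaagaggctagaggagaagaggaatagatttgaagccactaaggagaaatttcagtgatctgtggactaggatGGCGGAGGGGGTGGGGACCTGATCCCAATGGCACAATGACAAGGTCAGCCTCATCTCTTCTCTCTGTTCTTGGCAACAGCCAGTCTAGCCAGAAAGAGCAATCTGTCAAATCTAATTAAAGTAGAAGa
The TLE2 stretch is rich in CpG, with 29 CpG and 77.2% G or C, while that of TUBA1C has 1 CpG and 47.2%. The TUBA1C capitals hold the homeodomain motif TAATTA, the SOX motif ACAATG, the MEIS motif TGACAG, the nuclear receptor motif AGGTCA and the NFI motif TTGGCA. The last 2 are at HGFAC, a protease that activates hepatocyte growth factor (chr4:3441718-3441967, plus strand), where the whole stretch is inside a peak, and at GPC5-AS1, a lncRNA antisense to the glypican gene GPC5 (chr13:92721615-92721864, minus strand).
HGFAC: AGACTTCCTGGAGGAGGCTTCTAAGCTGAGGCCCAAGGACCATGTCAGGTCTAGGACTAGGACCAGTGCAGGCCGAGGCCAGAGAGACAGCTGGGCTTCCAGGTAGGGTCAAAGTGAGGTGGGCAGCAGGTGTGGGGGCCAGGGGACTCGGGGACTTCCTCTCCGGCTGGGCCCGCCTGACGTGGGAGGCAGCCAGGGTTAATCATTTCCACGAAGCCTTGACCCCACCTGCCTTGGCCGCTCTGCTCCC
GPC5-AS1: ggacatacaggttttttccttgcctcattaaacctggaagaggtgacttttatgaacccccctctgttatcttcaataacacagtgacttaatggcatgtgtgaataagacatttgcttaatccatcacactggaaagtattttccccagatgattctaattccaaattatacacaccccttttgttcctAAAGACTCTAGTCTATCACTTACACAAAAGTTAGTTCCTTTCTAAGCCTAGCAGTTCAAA
The HGFAC capitals hold CAGCTG and the ZIC motif CAGCAGG. Such a match is a description of letters and does not show that a factor binds there.

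**Figure D1:**
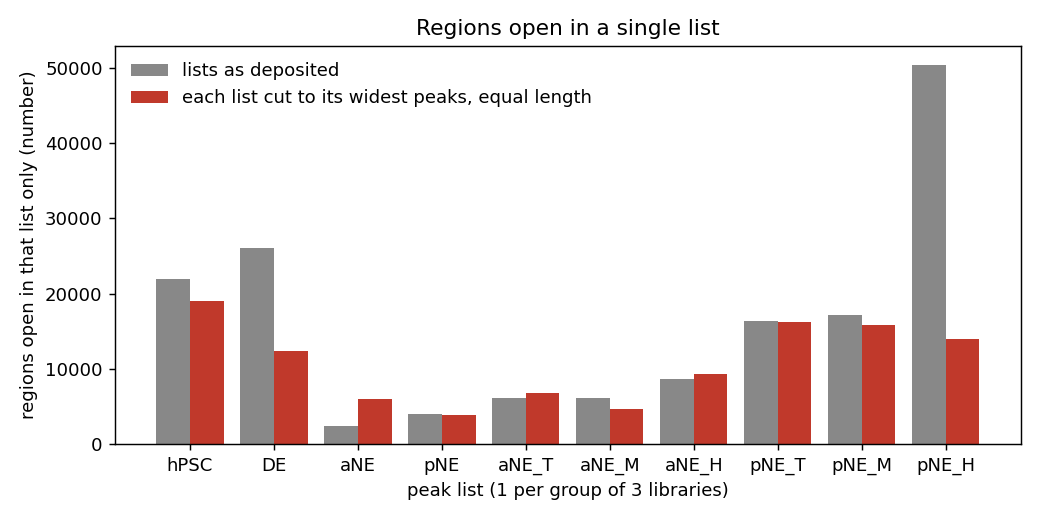
Number of regions open in each list and in none of the other 9, with the lists as deposited (grey) and with each list cut to its widest peaks so that all are as long as the shortest (red). pNE_T has 16390 as deposited and 16198 when lengths are made equal, while pNE_H falls from 50360 to 14000. The grey and red counts need not hold the same regions.

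The number of regions found in a single list followed list length in part. As deposited, pNE_H had 50360 such regions (10.6% of all regions), pNE_M 17167 (3.61%) and aNE_T 6155 (1.29%). The pNE_H list was also the longest, with 302355 peaks on chromosomes 1 to 22 against 207744 in pNE_T, 209967 in pNE_M and 191380 in aNE_T. When each list was cut to its widest 162041 peaks, the length of the shortest list, pNE_T had 16198 single-list regions, pNE_M had 15766, pNE_H had 14000 and aNE_T had 6791. At that length only hPSC, at 18969, had more than pNE_T. The 3 lists of posterior origin were thus above the 3 of anterior origin, which had 4678 to 9294, both as deposited and at equal length. The narrowest peak was 115, 114 and 109 bp in the pNE-derived lists and 122, 122 and 126 bp in the aNE-derived lists, with 113 bp in hPSC and 112 bp in DE; its part in these counts was not tested.

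Somewhat more regions were shared by pNE_T with exactly 1 other list than were open in pNE_T only. There were 18456 regions open in exactly 2 lists of which pNE_T was one, and in 13635 of them (73.9%) the other list was pNE_H. That is 4.70% of all regions open in pNE_H. The partner was pNE_M in 1140 regions, aNE_T in 999, DE in 912 and hPSC in 594. The day 2 parent list pNE was the partner in 286. Without the pNE_H list, 30025 regions instead of 16390 would count as open in pNE_T only. At the other end, 78808 regions open in pNE_T were open in all 10 lists.

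The edge of the rule is thin. Among the members, 7 touched a peak of another list with 0 bp between them, 78 lay 1 to 10 bp away and 387 lay within 50 bp. Just outside it, 66 of the 18456 regions open in pNE_T and 1 other list were joined by an overlap of 1 to 10 bp, and 487 by 50 bp or less. The median gap from a member to the nearest peak of another list was 1504 bp, against 1018 bp for aNE_T-only, 1539 bp for pNE_M-only and 1442 bp for pNE_H-only regions. A gap of 500 bp or more was found for 12003 members, and 808 lay more than 10 kb from any other list's peak.

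Most members were narrow, but they had a long tail of wide peaks. Their median width was 173 bp, with 115 bp at the 5th and 464 bp at the 95th percentile, and 2024 of them had the smallest width in the list, 115 bp. The other 191354 pNE_T peaks on these chromosomes had a median of 304 bp. The aNE_T-only regions had a median of 159 bp, pNE_M-only 166 bp and pNE_H-only 165 bp. Regions of 500 bp or more made up 3.97% of members (651), 2.98% of pNE_M-only (511), 2.44% of pNE_H-only (1229) and 0.422% of aNE_T-only regions (26). At 1000 bp or more there were 32 members, 11 pNE_M-only, 25 pNE_H-only and 0 aNE_T-only regions, although the pNE_H-only set was the largest. Width is the only measure of peak size in the lists. The rule did not use it directly, but a wider peak has more room to overlap a peak of another list and be left out. The lower median of members beside the other pNE_T peaks is therefore not independent of the rule. Members of 500 bp or more lay inside protein-coding genes in 45.6% of cases (41.8% to 49.5%) and narrower ones in 48.0% (47.3% to 48.8%).

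**Figure D2:**
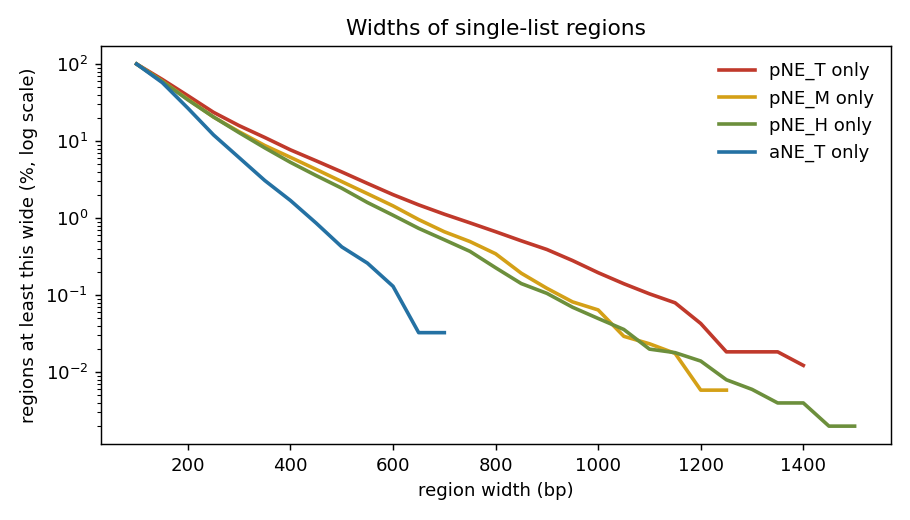
Share of single-list regions at least as wide as the value on the x axis (bp), on a log y axis, for 4 lists. The pNE_T curve has the highest share at 500, 750 and 1000 bp, and the aNE_T curve ends before 750 bp.

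The widest member, of 1449 bp, was on chromosome 7 from 136272333 to 136273781 (GRCh38) inside the lncRNA gene LOC105375523, with 16555 bp to the nearest peak of any other list. The next lay in OCA2, a melanosome transporter (chromosome 15, 28030355 to 28031765, 1411 bp), and 42.9 kb from the start of the fatty acid transporter CD36 outside any gene (chromosome 7, 80689390 to 80690752, 1363 bp). They were followed by members in AFG2A (chromosome 4, 123231119 to 123232364), TMCO1, a calcium channel of the endoplasmic reticulum (chromosome 1, 165747612 to 165748845), and CRYBG1 (chromosome 6, 106503042 to 106504268). Of the 32 members of 1000 bp or more, 20 lay in a protein-coding gene, 9 lay in no gene, and 29 were at least 1 kb from a peak of another list. Among these 32 were members in DSCAML1, a neural adhesion protein, LRP2, the endocytic receptor megalin, and ASIC2, a proton-gated channel; these 3 were chosen after their values were seen. A pair of them had the same width, 1182 bp, in NOMO1 and in NOMO3, which are near-identical gene copies on chromosome 16, so reads may have been split between the copies and both are uncertain. Exon positions were not used here.

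Position relative to genes was not used by the rule. Members were distal: 6.58% (6.21% to 6.97%) were under 1 kb from the start or end of a gene in the RefSeq table, against 11.2% of all merged regions and 16.6% of regions that pNE_T shared with another list. Other single-list sets were similar in this, at 7.91% for aNE_T-only, 6.38% for pNE_M-only and 6.70% for pNE_H-only regions. On the 21 chromosomes with listed start sites, the median distance of the 15538 members there to the nearest start was 43.2 kb. It was 34.5 kb for aNE_T-only, 48.0 kb for pNE_M-only, 47.2 kb for pNE_H-only and 35.3 kb for all regions. In the farthest class, 100 kb or more, lay 24.5% of members (23.8% to 25.2%), 17.6% of aNE_T-only regions (16.7% to 18.6%) and 28.4% of pNE_M-only regions (27.7% to 29.1%). In the median distance and in this class members stood between aNE_T-only and both other posterior sets, while within 1 kb of a gene end they were just below the pNE_H-only regions.

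**Figure D3:**
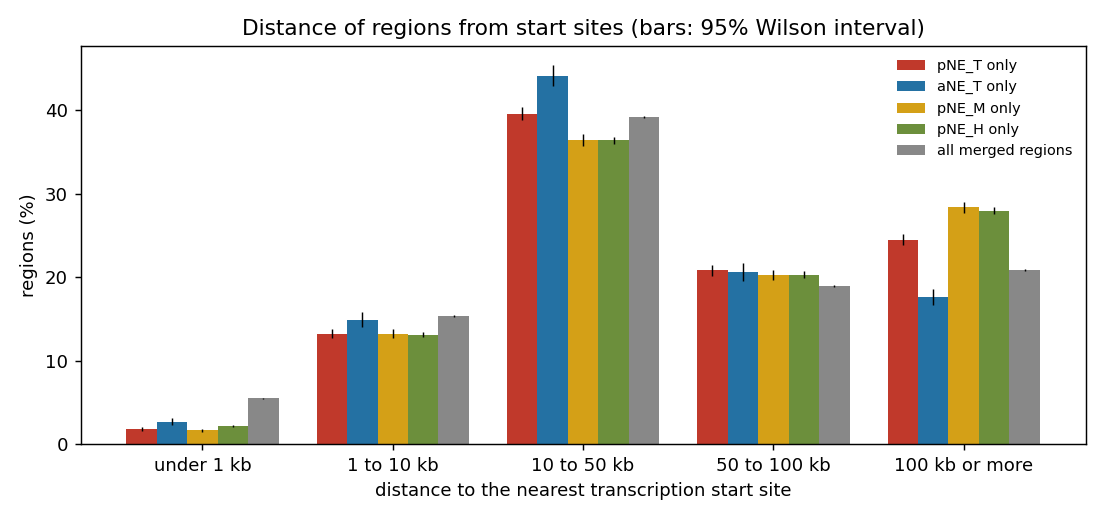
Share of regions (%) in 5 classes of distance to the nearest transcription start site, for 4 single-list sets and all merged regions, with 95% Wilson intervals that cover counting only. Members (red) hold 1.80% under 1 kb against 5.49% for all regions, and 24.5% at 100 kb or more.

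Gene bodies held 62.5% of members (61.8% to 63.3%), against 64.8% of all regions, 65.8% of aNE_T-only, 59.6% of pNE_M-only and 60.7% of pNE_H-only regions. For protein-coding genes alone the share was 48.0% of members, 53.8% of aNE_T-only, 44.6% of pNE_M-only and 45.4% of pNE_H-only regions. The 303 protein-coding genes of 500 kb or more held 10.9% of members, 11.0% of pNE_M-only, 11.4% of pNE_H-only and 9.24% of aNE_T-only regions, with 9.37% of all regions. A further 13.5% of members lay in a lncRNA gene and in no protein-coding gene.

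The share of regions that were members varied among chromosomes. It was lowest on chromosome 19, at 2.06% (197 of 9560 regions), and low on chromosomes 17 (2.70%) and 22 (2.75%), which are rich in genes. It was highest on chromosomes 4 and 5, at 3.76% each. The pNE_H-only share had the same extremes among these, 5.60% on chromosome 19 and 13.5% on chromosome 4. The aNE_T-only share ran the other way, with 1.81% on chromosome 22, 1.30% on chromosome 19 and 1.02% on chromosome 4.

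Few members had another member close by. Of 16368 gaps between consecutive members, 603 (3.68%) were under 1 kb and 1579 (9.65%) under 10 kb, with a median of 101 kb. These shares were 3.97% and 10.5% for pNE_M-only and 5.78% and 22.6% for the more numerous pNE_H-only regions. The nearest region outside the set, where it was within 10 kb (15582 members), was open in pNE_T in 44.2% of cases, against 39.3% of the 459780 regions that are not members. For pNE_H the shares were 64.7% and 63.2%. The other lists were below their share there, with 37.9% against 39.5% in aNE_T, 40.3% against 42.4% in pNE_M and 35.9% against 42.0% in hPSC. Neighbours of the other single-list sets were likewise open more often in the set's own list. These own-list shares were 43.4% against 37.3% for aNE_T-only, 44.7% against 38.8% for pNE_M-only and 63.2% against 56.4% for pNE_H-only regions.

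In windows of 1 Mb, 2650 of 2721 with any region held at least 1 member, the median was 6, and the maximum was 22. That maximum was on chromosome 8 from 35 to 36 Mb, which holds the netrin receptor gene UNC5D, with 22 of 195 regions (11.3%), 5 pNE_M-only, 27 pNE_H-only and 1 aNE_T-only region. The next were chromosome 3 from 62 to 63 Mb, which includes FEZF2, PTPRG and CADPS (21 of 254), chromosome 1 from 172 to 173 Mb with the dynamin gene DNM3 (19 of 187), and chromosome 20 from 20 to 21 Mb with the neuroendocrine factor INSM1 (19 of 200). On chromosome 3 from 54 to 55 Mb, over the calcium channel subunit gene CACNA2D3, there were 18 of 233.

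Of 19126 protein-coding genes, 4066 (21.3%) had a member in the gene body and 9527 (49.8%) had one in the body or in the 50 kb on each side. The 12 genes with the most members in the body were all long, from 561 kb for UNC5D to 2299 kb for PTPRD, a receptor phosphatase that organises synapses. PTPRD had 19 members among 332 regions (5.72%), 20 pNE_M-only, 57 pNE_H-only and 1 aNE_T-only region. KIAA1217 had 18 of 172 (10.5%), with 5, 19 and 2 in the same order. CACNA2D3 had 17 of 218, with 2, 25 and 3. The potassium channel partner DPP10 and the teneurin TENM2, a synaptic adhesion protein, had 16 each, of 193 and 280 regions.

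A further 5 genes had 15 members each: the phosphatase PTPRG (of 249), the photoreceptor gene EYS (of 207), the synaptic scaffold MAGI2 (of 248), the glutamate receptor GRM8 (of 139) and UNC5D (of 127, 11.8%). THSD7B (of 128) and FHIT (of 229) had 14 each. In these 12 genes the share of regions that were members ran from 5.71% in TENM2 to 11.8% in UNC5D, above the 3.44% of all regions; having many members was what selected them.

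Relative to all regions around them, other genes stood out. Among protein-coding genes with at least 20 regions within 50 kb, the highest share was at NUFIP1, an RNA-binding partner of FMRP, with 6 of 23 (26.1%), followed by ZNHIT6, a snoRNP assembly factor, with 5 of 20. ABCD2, a peroxisomal fatty acid transporter, had 6 of 26 and SNAP25, a SNARE protein of synaptic vesicle fusion, 9 of 39 (23.1% each). PPIC had 5 of 22, GPALPP1 5 of 22, TOP2B 7 of 35, HADH 7 of 35, BTBD3 5 of 25 and SMG1 9 of 46. These genes were ranked by this share, so it is a description. The window of GPALPP1 overlaps that of NUFIP1, that of HADH overlaps LEF1, and that of TOP2B overlaps RARB. SMG1 has related copies elsewhere on chromosome 16, so its regions are uncertain.

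At SNAP25 (chromosome 20, 10218830 to 10307418) the 9 members were spread from 24.7 to 123 kb above the lower-coordinate end of the gene, and 5 lay in its body. They were 115 to 256 bp wide, and that at 10297431 to 10297545 was 10766 bp from the nearest peak of another list. The window had 22 open regions in pNE_T, 13 in aNE_T, 10 in pNE_M and 15 in pNE_H. The day 2 lists had 12 in aNE and 16 in pNE, and DE had 20. In equal-length lists the members there fell from 9 to 4, while aNE_H had 2 single-list regions, hPSC, DE, aNE and pNE 1 each, and aNE_T, aNE_M, pNE_M and pNE_H 0.

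LEF1 encodes a transcription factor that acts with beta-catenin in WNT signalling and is itself a known WNT target. At LEF1 (chromosome 4, 108047548 to 108168932) there were 11 members among 72 regions (15.3%), 6 of them in the gene. The widest, of 1084 bp, lay from 108086938 to 108088021, with 4779 bp to the nearest peak of another list, and a second member of 170 bp followed it at 108088247 to 108088416. In the same window aNE_T had 1 single-list region, pNE_M had 0 and pNE_H had 4, while aNE_H had 7 and DE had 6. In all, 37 regions were open there in pNE_T and 37 in pNE_H, 35 in aNE_M and in aNE_H, 25 in aNE_T and in pNE_M, and 23 in pNE. In equal-length lists pNE_T had 8 single-list regions at LEF1, aNE_H 5, aNE_M and pNE_H 2 each, and pNE_M and aNE_T 0.

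**Figure D4:**
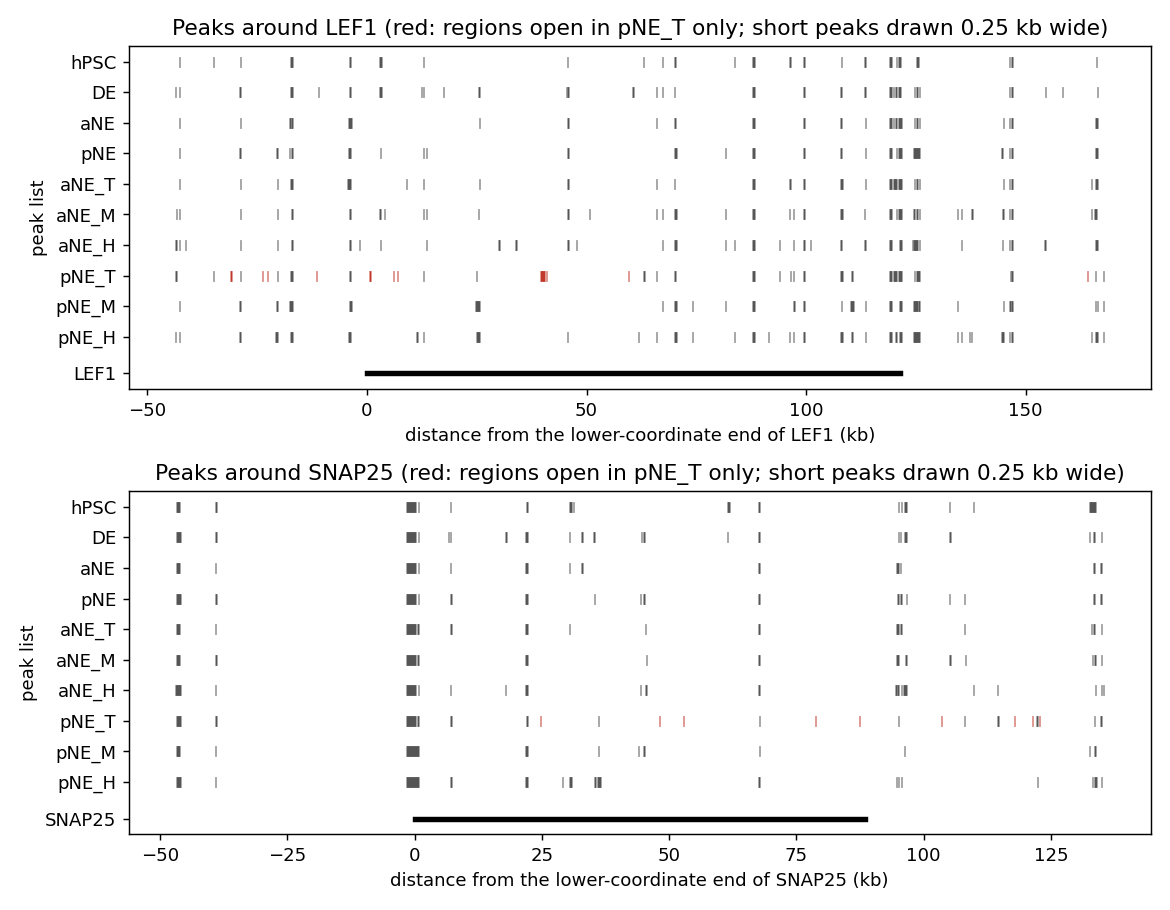
Peaks of the 10 lists around LEF1 (top) and SNAP25 (bottom) by distance from the lower-coordinate end of the gene in kb (black bar: gene), with members in red and short peaks drawn 0.25 kb wide. The 11 members at LEF1 include the 1084 bp peak near 39.9 kb, and the 9 at SNAP25 lie between 24.7 and 123 kb.

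The counts at UNC5D and KIAA1217 depended little on list length but did depend on other settings. Within 50 kb of UNC5D there were 17 members as deposited and 16 at equal length, where pNE_H had 9 single-list regions, hPSC 6 and pNE_M 4. Within 50 kb of KIAA1217 there were 18 and then 19, against 7 in pNE_H and 4 in hPSC. With the widest 50% of peaks UNC5D had 6 and KIAA1217 12, and without the pNE_H list they had 29 and 30. Members within 50 kb of GRM8 went from 16 to 9 and those at NCAM1, a neural adhesion protein, from 9 to 5.

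Gene lists by function were then read against 3.21%, the share of members among the 345962 regions within 50 kb of any protein-coding gene; they were chosen with earlier results of these data known. The telencephalon and rostral forebrain list had 15 members among 611 regions (2.45%, interval 1.49% to 4.01%), and 12 of 24 genes had a member nearby, close to the 49.8% of all protein-coding genes. FEZF2, a forebrain zinc finger repressor, had 3 of 24 regions. The homeobox genes DLX1 and DLX2 had 2 each, of 26 and 29, in overlapping windows, and the eye and forebrain factor PAX6 had 2 of 38. HESX1, SP8, VAX1, FEZF1, EMX1, OTX2, SIX3 and LHX5 had 1 each. LHX2, a LIM homeodomain factor of the cortex, had 0 of 42 and EMX2 0 of 33.

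The member near SIX3 was 124 bp wide (chromosome 2, 44934842 to 44934965, in LINC01833). That near OTX2 was 316 bp (chromosome 14, 56769624 to 56769939, 35.7 kb from the OTX2 start), and the wider one at PAX6 was 210 bp (chromosome 11, 31817084 to 31817293, inside the gene). For NR2F1, a nuclear receptor, the widest was 300 bp (chromosome 5, 93598462 to 93598761, outside genes).

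The label of the population was checked against all peaks of the list, not only members. Every one of the 24 telencephalon genes had an open region within 1 kb of a gene end in pNE_T, but so did all 24 in each other list, so this measure does not tell the populations apart. Within 50 kb of these genes pNE_T had 51.2% of regions open, aNE_T 54.7%, pNE_M 49.4%, pNE_H 61.9% and hPSC 55.5%. Within 50 kb of the 22 hindbrain and spinal cord genes the shares were 51.7% in pNE_T, 43.7% in aNE_T, 58.5% in pNE_M and 67.4% in pNE_H, with 45.2% in pNE. Lists differ in length, so each share is to be read against its own list. Of all merged regions, pNE_T had 41.3% open, aNE_T 38.1%, pNE_M 41.0%, pNE_H 61.0%, hPSC 40.5% and pNE 39.2%. At the telencephalon genes pNE_H was thus near its share of all regions, while pNE_T, aNE_T, pNE_M and hPSC were above theirs. But pNE_T was about as far above its share at the hindbrain genes (51.7%) and the midbrain and isthmus genes (51.0%). The aNE_T list was higher at telencephalon genes (54.7%) than at hindbrain genes (43.7%). By this measure pNE_T did not set the telencephalon genes apart from the hindbrain genes. Expression was not measured, so the telencephalic label rests on the medium.

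Members at the 22 hindbrain and spinal cord genes were 11 among 460 regions (2.39%, interval 1.34% to 4.23%), and 13 genes had one nearby. HOXA3 had 3 of 62 and HOXA2 2 of 41, in overlapping windows and none in a gene body. By contrast pNE_M-only regions made up 6.52% of the regions at this list and pNE_T-only 2.39%, against 3.15% and 3.21% at all protein-coding genes. In equal-length lists the values were 10.6% and 3.69%, against 3.86% and 4.22% at all protein-coding genes. The 18 midbrain and isthmus genes had 17 of 710 (2.39%), led by PAX5 with 4 of 92, with LMX1A, CNPY1, POU4F1 and GBX2 at 2 each.

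Genes of retinoic acid signalling had 44 members among 1071 regions (4.11%, interval 3.07% to 5.47%), and 17 of 23 genes had one nearby. The interval includes the 3.21% of all protein-coding genes. Of the 44 members 16 were at RARB, and the share without it was not taken. The pNE_H-only share at this list was 12.9%, the pNE_M-only 3.27% and the aNE_T-only 0.840%. At all protein-coding genes these were 9.27%, 3.15% and 1.36%. RARB, the receptor gene that retinoic acid itself induces, had 16 of 194 and MEIS2, a homeodomain factor that partners HOX proteins, 7 of 95. The retinoic acid hydroxylase gene CYP26C1 had 3 of 34, as had the retinol dehydrogenase RDH10 (of 35) and TSHZ1 (of 58). At RARB the members were 115 to 281 bp wide; 12 lay in the gene, with the widest at 24922854 to 24923134 on chromosome 3. The RARB window had 81 open regions in pNE_T, 75 in pNE_M and 132 in pNE_H, against 46 to 49 in the aNE-derived lists and 58 in pNE. At equal length pNE_T had 15 single-list regions at RARB, pNE_H 13, pNE_M 10 and the aNE-derived lists 0 to 4.

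The WNT list had 36 of 1071 (3.36%, interval 2.44% to 4.62%), with 14 of 22 genes. LEF1 held 11 of the 36 members, and the share without it was not taken. Beside LEF1 these were at the R-spondin receptor gene LGR5 (4 of 45), at the ligand genes WNT3 (3 of 28) and WNT5A (3 of 47), and at TNFRSF19 (3 of 66). The list had 25 pNE_M-only regions (2.33%), with 0 at LEF1, LGR5 and WNT3, 1 at WNT5A and 3 at TNFRSF19. The FGF and ERK feedback list had 29 of 1004 (2.89%), led by the intracellular FGF gene FGF14 (6 of 135), the receptor FGFR2 (5 of 70) and FGF12 (4 of 110).

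Neural progenitor genes had 32 of 805 (3.98%, interval 2.83% to 5.56%), led by NCAM1 with 9 of 92, N-cadherin (CDH2) with 6 of 61, and SOX11 and the Notch target HES1 with 3 each. Neuron genes had 26 of 591 (4.40%, interval 3.02% to 6.37%). Of these 9 were at SNAP25, and without that gene, an alternative chosen after seeing the data, 17 of 552 regions were members (3.08%). The others included 3 at MAP2 and 2 each at GAP43, NEUROG1 and STMN2. The 40 long genes of axon guidance and adhesion had 292 of 7134 (4.09%, interval 3.66% to 4.58%), and 38 of them had a member nearby, with a median of 176 regions a gene against 27 for all protein-coding genes. Protein-coding genes of 500 kb or more had 1783 of 44630 (4.00%, interval 3.82% to 4.18%), the same level. This list was led by PTPRD with 19, UNC5D with 17 and TENM2 with 16, then the synaptic adhesion gene NLGN1 with 14. Its pNE_M-only share was 4.65% and its pNE_H-only regions numbered 1000 of 7134, against 3.15% and 9.27% at all protein-coding genes, so the other posterior lists were above their own overall share there too.

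For other cell types, neural crest and surface ectoderm genes had 15 of 813 (1.85%, interval 1.12% to 3.02%), with at most 2 at a gene (GATA2, MSX2 and GRHL2). Mesoderm and endoderm genes had 9 of 500 (1.80%, interval 0.950% to 3.39%). Pluripotency genes had 11 of 457 (2.41%), led by VRTN with 3, which is level with the midbrain and hindbrain lists. Only the neural crest and surface ectoderm interval lay below 3.21%. In equal-length lists the mesoderm and endoderm share was 4.09%, against 4.22% at all protein-coding genes, so that list's lower place was not kept, while neural crest and surface ectoderm had 2.20%.

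**Figure D5:**
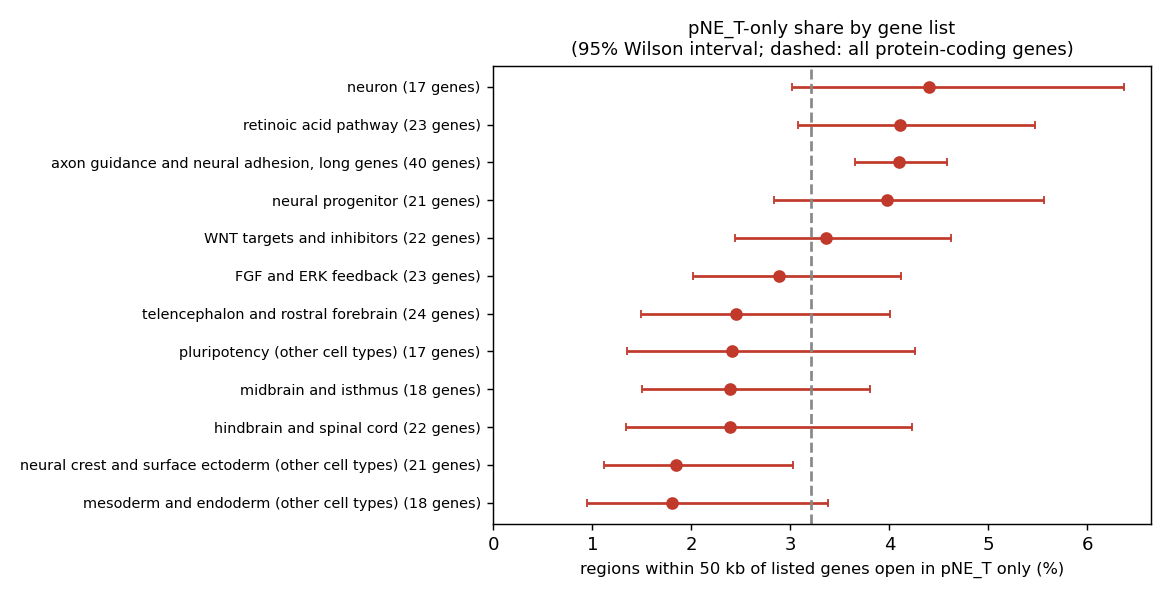
Share of regions within 50 kb of the genes of 12 lists that are open in pNE_T only (%), with 95% Wilson intervals that cover counting only; the dashed line is the 3.21% of all protein-coding genes. Values run from 1.80% to 4.40%, and most intervals span the line.

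Few members were at promoters, which is not independent of the rule for the reason given with gene ends. On the 21 chromosomes with promoter sequences, 81 of 15538 members (0.521%, interval 0.420% to 0.647%) overlapped a promoter window, from 250 bases before to 50 after a start. For all merged regions it was 3.79%, for regions that pNE_T shared with another list 8.56%, and for aNE_T-only, pNE_M-only and pNE_H-only regions 0.695%, 0.481% and 0.605%. The 81 members touched 85 windows of 83 genes, of which 54 windows belonged to lncRNAs and 31 to protein-coding genes, and 3 windows lay wholly inside a member. The lncRNA share was 63.5%, against 64.2% for pNE_M-only, 54.8% for aNE_T-only and 37.3% of all windows.

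These promoter windows were poor in CpG. Their median content of G or C was 46.0% and their median number of CpG 3, against 58.7% and 14 over all 33725 windows and 65.7% and 26 in the 19347 windows with a region open in all 10 lists. Windows with single-list regions of the other lists were alike, at 49.3% and 3.5 for aNE_T, 48.0% and 3 for pNE_M and 47.0% and 4 for pNE_H. The TLE2 stretch printed above is an exception. Its peak lay 83 bp from a peak of another list, that at GFRA1 73 bp and that at LPP 17 bp, so these border on chromatin open elsewhere. The peaks at KSR1 and TUBA1C were 1638 and 1738 bp from any other list's peak.

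Short motifs were searched on both strands of the promoter windows, and the shares below are of windows with a match. A match may lie outside the peak, since only 3 of the 85 windows were wholly inside a member. The shares thus describe promoter windows that members touch, not the open bases alone. The SOX motif ACAATG was in 23 of the 85 windows (27.1%), in 23.8% of aNE_T-only, 17.3% of pNE_M-only and 14.3% of pNE_H-only windows, and in 10.8% of all windows. The GATA motif AGATAA was in 20 (23.5%), against 4.76%, 12.3%, 19.9% and 10.4% in the same order. The homeodomain motif TAATTA was in 10 (11.8%), against 0% of the 42 aNE_T-only windows, 7.41%, 5.98% and 4.91%. The AP-1 motif TGANTCA was in 18.8%, near the 18.5% and 18.3% of pNE_M-only and pNE_H-only windows. The ETS motif CCGGAAG was in 3.53%, against 10.3% of all windows and 15.8% of windows open in all 10 lists, and it was as rare in the other single-list sets, at 0% in aNE_T-only, 3.70% in pNE_M-only and 1.33% in pNE_H-only windows. The TEAD motif ACATTCC was in 10.6%, against 2.38% of aNE_T-only, 8.64% of pNE_M-only, 5.98% of pNE_H-only and 3.45% of all windows.

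The other motifs are given for member windows and then for all windows. The second SOX form ACAAAG, which begins like the first, was in 23 member windows (27.1%) and 5409 of all 33725 windows. The MEIS motif TGACAG was in 23.5% and 15.8%, the E-box CAGCTG in 18.8% and 18.0%, and the NFI motif TTGGCA in 16.5% and 12.5%. The nuclear receptor motif AGGTCA was in 15.3% and 13.8%. Its direct repeat with a spacing of 5, the form that retinoic acid receptors bind and which holds that motif, was in 0 member windows and 0.00593% of all. The ZIC core CAGCAGG was in 14.1% and 10.5%, and the bicoid motif TAATCC of OTX factors in 5.88% and 6.37%. The PBX-HOX motif TGATTNAT was in 5.88% and 2.83%, the TCF-LEF motif ATCAAAG in 5.88% and 2.60%, and the forkhead motif TGTTTAC in 3.53% and 3.45%. The POU octamer was in 2.35% and 1.75%, the RFX motif in 2.35% and 0.851%, the CTCF core in 0 and 0.658%, and CpG in 92.9% and 96.0%. Other single-list sets follow in the order aNE_T-only, pNE_M-only and pNE_H-only windows. TGACAG was in 28.6%, 22.2% and 22.6% of them, TTGGCA in 23.8%, 12.3% and 19.3%, and TGATTNAT in 4.76%, 3.70% and 10.3%. CAGCTG was in 21.4%, 32.1% and 19.9%. Member windows were somewhat above each of these sets for ACAAAG, at 23.8%, 23.5% and 23.6%, and for ATCAAAG, at 0%, 4.94% and 3.32%. Their own intervals were wide, at 18.8% to 37.3% for ACAAAG and 2.54% to 13.0% for ATCAAAG. The first held every share of the other sets and the second all but the 0%. Base composition moves with these shares, since the member windows hold fewer G and C than all windows, and its part was not tested. With 85 windows the interval of the ACAATG share ran from 18.8% to 37.3%.

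Of 1461 miRNA hairpins on these chromosomes, 356 overlapped some merged region and 3 overlapped a member. The member at MIR337, in the imprinted miRNA cluster of chromosome 14, ran from 100874542 to 100874742 and was 7388 bp from any other list's peak. It covered 44 bp of the hairpin, which runs from 100874493 to 100874585, and not the whole. The mature products of MIR337 are shown with the seed, bases 2 to 8, in capitals.
hsa-miR-337-5p: gAACGGCUucauacaggaguu
hsa-miR-337-3p: cUCCUAUAugaugccuuucuuc
The seeds of the 2 arms differ. The other hairpins were MIR4260 on chromosome 1, with a member 23 bp from another list's peak, and MIR4320 on chromosome 18, covered whole by a member of 315 bp.

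The members farthest from any peak of another list were mostly outside genes, and distances to other members were not counted. The first was on chromosome 21 from 10080514 to 10080628, 85214 bp from the nearest peak of another list, and at 115 bp it had the smallest width in the pNE_T list. It was followed by chromosome 6 from 29187192 to 29187392 (64349 bp), and by chromosome 6 from 66825396 to 66825692 (52010 bp), 690 kb from the nearest start site. Next came chromosome 15 from 37502560 to 37502840 (47231 bp), a 916 bp member on chromosome 1 from 60327518 to 60328433 (39111 bp), and chromosome 6 from 29212758 to 29212956 (38785 bp). The first lay in the lncRNA gene LOC105372733 and the other 5 in no gene.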

How the data were processed

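OmniATAC-seq peaks from 30 libraries in 10 groups of 3 were deposited as 10 lists. The deposited values are start and end positions in hg38, per the submitters' processing notes, which name FastQC, Bowtie2, MACS2, bedtools, featureCounts, edgeR and deepTools without a role; the peak threshold, filters and the way replicates were combined are not given in the sources used here. A change of threshold between lists would move every count. Lists and groups were matched by name. Peaks on chromosomes 1 to 22 were merged with Python 3.11.15, numpy 2.4.6 and pandas 2.3.3, and the code was tested on simulated lists; Wilson intervals used statsmodels 0.14.6. Genes, promoters and miRNAs came from RefSeq tables of GRCh38.p14 with 56756 genes; start sites of 1 chromosome were not used here. Of 269 listed genes 264 were matched and 5 on chromosome X were left out. The members and lists were chosen with earlier results of these data known. Named genes were the 12 with the most members in the body, the 10 with the highest share, the 3 leading genes of each list and every telencephalon gene with a member; a few genes under this rule are not reported here. Named regions were the 6 widest, the 6 farthest from other lists and the widest at 8 fixed genes. Alternatives changed overlap, peak extent, width, list length, lists compared and gene distance.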

Additional observations from a re-analysis of the deposited data

Results flagged for a closer look

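Chromosome X was outside the rule. It held 643 regions open in pNE_T only among 16790 merged regions there, or 3.83% (Wilson 95% interval 3.55% to 4.13%). The report describes chromosomes 1 to 22 only, so these peaks enter none of its values.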

How the results depend on the processing

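With only the widest 50% of the peaks of each list, 8419 regions were open in pNE_T only, and 7.17% of them lay within 1 kb of a gene end. Leaving out 1 of the other 9 lists at a time gave 16541 to 30025 regions, the highest without pNE_H, with 6.50% to 6.70% near a gene end, 61.9% to 62.7% in a gene and 170 to 213 of the 264 listed genes near a member (170 as reported). The share near a gene end was 6.01% where the nearest peak of another list was at least 500 bp away, 7.38% with windows of 500 bp at peak midpoints and 23.1% within 5 kb in place of 1 kb. Counting gene bodies only, 88 listed genes had a member. The share inside genes stayed within its interval in 14 of 14 alternatives. With the widest 50%, members fell to 4 at LEF1, 1 at SNAP25, 6 at UNC5D, 2 at GRM8, 1 at NUFIP1, 3 at RARB and 4 at NCAM1. Members at NCAM1 were 3 where a gap of 500 bp was required. Without pNE_H there were 29 at UNC5D, 30 at KIAA1217 and 25 at RARB. The search for motifs over whole peaks was not run for want of a genome sequence. No paired analysis was possible because each list is 1 entry per group without values per library. Read depth is unknown, so a region missing from a list may have been below detection there.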
